A study of Glycine max with 108 samples.

Results

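VSPA and VSPB are the vegetative storage proteins of soybean (Glycine max), and their transcripts were followed here through all stress treatments of a study in leaves and flowers. They were taken by identifier, GLYMA_07G014500 for VSPA and GLYMA_08G200100 for VSPB, and are 2 of the 57147 features in the deposited tables. They were chosen by name and not by their level. The deposited tables give identifiers without gene names, so the pairing of these names with these identifiers was not checked against an annotation.

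Vegetative storage proteins are glycoproteins of the acid phosphatase family that soybean keeps in the vacuoles of leaf paraveinal mesophyll and of other vegetative and reproductive organs. They serve as a temporary store of nitrogen, filled when other sinks are few and drawn on when seeds fill. In soybean their genes are known to respond to jasmonate, wounding, sugars, nitrogen supply and water deficit, and to be held down by phosphate and auxin.

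Plants of the cultivar Magellan were grown from seed coated with Bradyrhizobium japonicum, a nitrogen-fixing root symbiont, and sampled at 31 days of age. Every group, the controls included, shared that inoculum, and each library was made from tissue pooled over 5 to 7 plants. The 18 treatments of each tissue were an unstressed control, salinity (15 mM), acidity (pH 4), water deficit (irrigation with 30% of the transpirable water), low phosphate (phosphate reduced by 90%), cadmium (300 µM), every pair and triple of the first 4 stresses, those 4 together (the 4-stress combination), and those 4 with cadmium (the 5-stress combination). The pH and the phosphate level are given in the labels for the single stresses only. Stresses other than water deficit were in the nutrient solution from the start, so the samples show plants that grew up under the treatment and not a short exposure.

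After 4 columns that hold the average of the 2 other columns of their group were left out, 53 leaf and 51 flower libraries remained. Groups had 3 libraries, except 4 with 2, which were the control in leaf, and acidity, water deficit and the 4-stress combination in flower. Expression is in FPKM, a fragment count divided by the length of the transcript and the size of the library, so a level is per length and may be compared between the genes of a table. Read totals are unknown, and relative depth recovered from the smallest values spanned 0.864 to 1.23 for leaf libraries and 0.769 to 1.2 for flower libraries, with 1 as the tissue's median. In the flower 5-stress group, replicate 1 stood apart from the other 2 libraries in the values of both genes. Neither gene was listed at 0 in any library. How the authors' counting treated reads that match both genes is not given in the sources used here, so the share of each gene in their summed signal is uncertain. The tissue labels were not checked against leaf or flower marker genes, since the identifiers could not be paired with names.

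In flowers VSPA had the highest FPKM of all features in each of the 51 libraries. Its level ranged from 5177 to 12105 FPKM with a median of 8618 FPKM, which was 0.846% to 1.83% of the summed FPKM of a library. VSPB was the 11th highest feature in the median flower library, between the 6th and the 36th over all of them, at 594 to 2184 FPKM with a median of 1429 FPKM. In a pooled organ, fewer cells of a type and less RNA per cell cannot be told apart, here and in all results that follow.

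In leaves both transcripts were lower on the authors' scale, and their levels spanned a wider range of treatment means. VSPA ranged from 53.8 to 1117 FPKM with a median of 285 FPKM, and its rank among features ran from 48th to 1784th. VSPB ranged from 5.71 to 75.7 FPKM with a median of 24.98 FPKM. The 2 tables were scaled separately, so the levels of the organs were set side by side and not tested. Between the highest and the lowest treatment mean, leaf VSPA differed 17.8-fold and leaf VSPB 10.996-fold, where flower VSPA differed 2.11-fold and flower VSPB 3.31-fold. Within a group, the coefficient of variation between libraries had a median of 12.1% for VSPA and 19.98% for VSPB in leaf, and of 4.93% and 4.92% in flower.

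**Figure D1:**
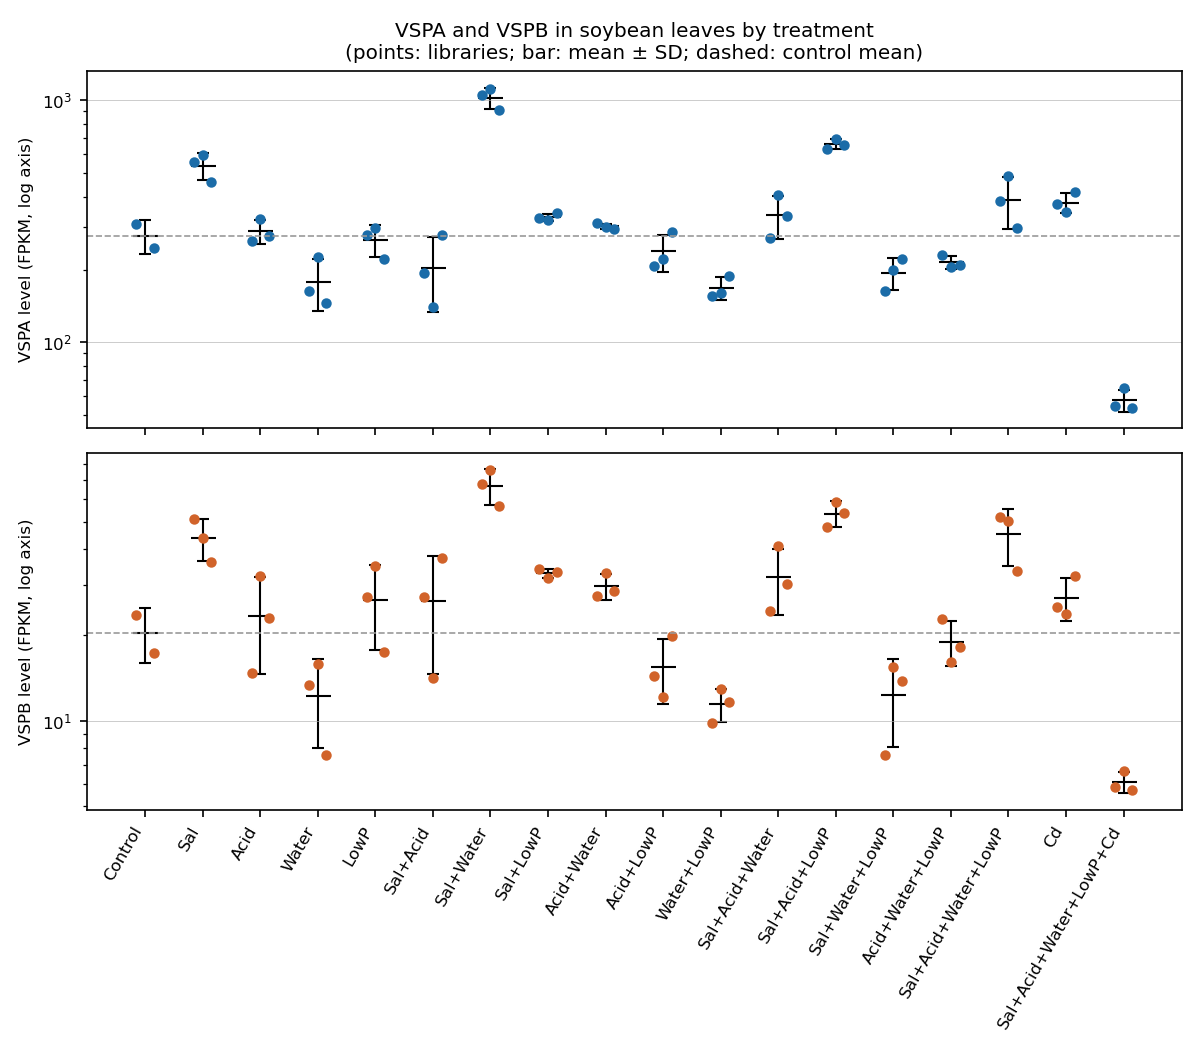
VSPA (top) and VSPB (bottom) in leaf libraries by treatment, in FPKM on a log axis; points are libraries, bars the mean ± SD and the dashed line the control mean. Salinity with water deficit is highest for both genes (mean 1027 FPKM for VSPA) and the 5-stress combination lowest (57.7 FPKM).

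In leaves the pair was highest under salinity with water deficit. VSPA stood at 1049, 1117 and 915 FPKM there, against 307 and 245 FPKM in the control libraries. VSPB stood at 67.9, 75.7 and 56.6 FPKM, against 23.5 and 17.2 FPKM in control. No library of this treatment overlapped the control libraries. The log2(FPKM + 1) change from control was 1.90 ± 0.20 (SE, adjusted p = 4.58e-10) for VSPA and 1.67 ± 0.32 (adjusted p = 4.12e-05) for VSPB, in a comparison in which 52.4% of the 28678 tested leaf features passed an adjusted p of 0.05.

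Salinity with acidity and low phosphate was the next highest treatment for both genes. VSPA was at 630.5, 693 and 653 FPKM and VSPB at 47.8, 58.8 and 53.6 FPKM, all above the control libraries. The rises were 1.26 ± 0.20 for VSPA (adjusted p = 2.33e-06) and 1.36 ± 0.32 for VSPB (adjusted p = 0.000559), with 52.4% of all features called. Salinity alone was the next in order for VSPA, at 554, 593 and 461 FPKM, while for VSPB, at 51.0, 43.9 and 36.2 FPKM, it came after the 4-stress combination. These libraries too lay above control, by 0.96 ± 0.20 for VSPA (adjusted p = 0.000211) and 1.07 ± 0.32 for VSPB (adjusted p = 0.00720), with 41.5% of all features called. The leaf control has replicates 1 and 2 only, so leaving out either leaves 1 control library, which is then assumed to vary like the libraries of the other groups. For VSPB the salinity call was lost without replicate 1 of every group (1.16, adjusted p = 0.0839) and without replicate 2 (0.84, adjusted p = 0.0941).

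The 5-stress combination gave the lowest leaf levels of both genes. VSPA was at 54.8, 64.5 and 53.8 FPKM and VSPB at 5.84, 6.66 and 5.71 FPKM. Every one of these libraries lay below every other leaf library for VSPA. The fall from control was 4.78-fold in mean FPKM for VSPA, with a log2 change of -2.23 ± 0.20 (adjusted p = 3.03e-12), and 3.35-fold for VSPB, with a change of -1.58 ± 0.32 (adjusted p = 5.93e-05), where 60.3% of all features were called.

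Water deficit alone left leaf VSPA at 163, 226 and 145 FPKM, all below control, and VSPB at 13.3, 15.8 and 7.60 FPKM. The change of VSPA was -0.65 ± 0.20 (adjusted p = 0.0177), and that of VSPB was -0.73 ± 0.32 (adjusted p = 0.0949), which missed the threshold, with 24.1% of all features called. The VSPB value passed without replicate 2 of every group (-1.14, adjusted p = 0.0434) and with the averaged columns counted as libraries (adjusted p = 0.0441). Water deficit with low phosphate gave 156, 160.3 and 189 FPKM of VSPA and 9.79, 12.9 and 11.6 FPKM of VSPB, with changes of -0.71 (adjusted p = 0.00450) and -0.77 (adjusted p = 0.0463), where 46.3% of all features were called. Both VSPA calls and the VSPB call were lost when 1 replicate was left out or the scaling was changed. Without replicate 1 of every group, which leaves 1 control library, the changes were -0.43 (adjusted p = 0.539), -0.49 (adjusted p = 0.304) and -0.46 (adjusted p = 0.507), and under median-ratio scaling, in place of the authors' FPKM scaling, they were -0.51 (adjusted p = 0.0508), -0.45 (adjusted p = 0.0580) and -0.53 (adjusted p = 0.179).

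Acidity alone and low phosphate alone brought no call for either gene in leaf. VSPA was at 262, 325 and 275 FPKM under acidity and at 278, 296 and 221 FPKM under low phosphate, overlapping the control libraries. In these 2 comparisons 12.2% and 3.82% of all features were called. Cadmium alone gave 373, 345 and 416 FPKM of VSPA, above both control libraries, with a change of 0.46 ± 0.20 (adjusted p = 0.0616), and 24.98, 23.8 and 32.3 FPKM of VSPB, with a change of 0.39 ± 0.32 (adjusted p = 0.325), where 47.2% of all features were called. The VSPA value under cadmium passed the threshold under median-ratio scaling (0.60, adjusted p = 0.00984).

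Over the 17 leaf treatments, VSPA was called against control in 9, of which 4 were rises and 5 falls, and VSPB in 6, of which 4 were rises and 2 falls. Over the same 17 comparisons 20.2% of all feature tests were called as rises and 25.2% as falls, so a call by itself was common among leaf features. These comparisons share 2 control libraries. Besides the treatments above, VSPA was called in the 4-stress combination (0.47, adjusted p = 0.0443, 57.6% of all features called), in salinity with acidity (-0.48, adjusted p = 0.0340, 70.1%) and in salinity with water deficit and low phosphate (-0.51, adjusted p = 0.0398, 44.8%), and VSPB in the 4-stress combination (1.10, adjusted p = 0.00366). These 4 calls were each lost when 1 replicate was left out of every group. The values were then 0.14 (adjusted p = 0.649, without replicate 2), -0.31 (adjusted p = 0.446, without replicate 1), -0.22 (adjusted p = 0.678, without replicate 1) and 0.80 (adjusted p = 0.0844, without replicate 2). The calls that held under every alternative tried were those of VSPA in salinity, salinity with water deficit, salinity with acidity and low phosphate, and the 5-stress combination, and those of VSPB in the last 3 of these. With median-ratio scaling VSPA was called in 8 treatments, with 5 rises and 3 falls.

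The order of the leaf levels was graded in its middle. Of the 17 pairs of neighbouring treatments in the order, 13 overlapped in their libraries for VSPA and 15 for VSPB. VSPA did not overlap with control in 10 treatments and VSPB in 12. How often other features overlap in this way was not counted, so these numbers do not set VSPA and VSPB apart from them.

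**Figure D2:**
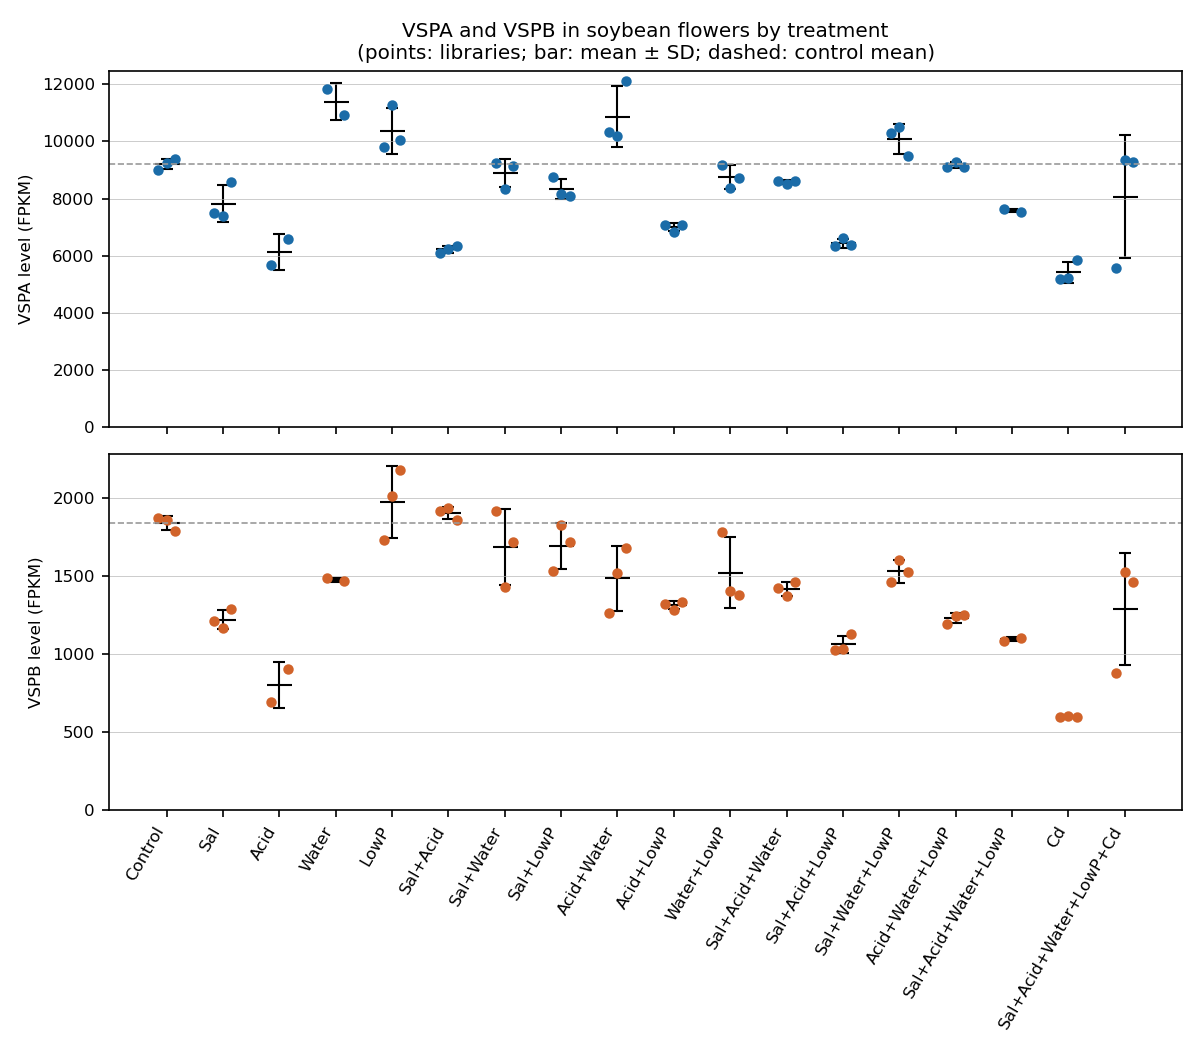
VSPA (top) and VSPB (bottom) in flower libraries by treatment, in FPKM on a linear axis from 0; points are libraries, bars the mean ± SD and the dashed line the control mean. Cadmium alone is lowest for both genes (mean 5413 FPKM for VSPA and 597 FPKM for VSPB), and the low library of the 5-stress combination is replicate 1.

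In flowers cadmium alone gave the lowest levels of both genes. VSPA was at 5177, 5209 and 5854 FPKM, against 9001, 9255 and 9376 FPKM in control. VSPB was at 594, 598 and 598 FPKM, against 1876, 1861 and 1792 FPKM in control. The treated and control libraries were far apart. VSPA fell by 0.77 on the log2 scale (SE 0.10, adjusted p = 7.66e-07) and VSPB fell by 1.63 (SE 0.13, adjusted p = 9.38e-12), with 30.2% of the 33792 tested flower features called. In mean FPKM the falls were 1.70-fold and 3.09-fold.

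Acidity alone, with 2 libraries, gave 5689 and 6587 FPKM of VSPA and 693 and 903 FPKM of VSPB. All lay below control. The change was -0.59 ± 0.12 for VSPA (adjusted p = 0.000859) and -1.22 ± 0.14 for VSPB (adjusted p = 2.27e-07), where 6.69% of all features were called. Leaving out replicate 2 or 3 leaves 1 acidity library, whose spread is then taken from the other groups. The VSPA value was -0.48 without replicate 2 (adjusted p = 0.309) and -0.68 without replicate 3 (adjusted p = 0.0759), neither called, while that of VSPB held under every alternative.

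Salinity with acidity set the 2 genes apart. VSPA was at 6086, 6229 and 6335 FPKM, below every control library, with a change of -0.57 ± 0.10 (adjusted p = 0.000192). VSPB was at 1918, 1936 and 1864 FPKM, which overlapped the control libraries, with a change of 0.05 ± 0.13 that was not called. In this comparison 10.3% of all features were called.

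Water deficit alone gave the highest mean of flower VSPA, at 11853 and 10939 FPKM, above every control library. The change of 0.31 ± 0.12 was not called in the fit over all groups (adjusted p = 0.106, 7.96% of all features called). Low phosphate alone gave the highest mean of flower VSPB, at 1730, 2014 and 2184 FPKM, which overlapped control, and its change was not called either (3.35% of all features called).

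Over the 17 flower treatments, VSPA was called in 5 and VSPB in 8, all of them falls. Over the same comparisons 5.85% of all feature tests were called as rises and 3.68% as falls. These comparisons share 3 control libraries, so their calls are not independent of each other. The further VSPA calls were acidity with low phosphate (-0.40, adjusted p = 0.0147, 6.13% of all features called) and salinity with acidity and low phosphate (-0.52, adjusted p = 0.000849, 9.55%). The further VSPB calls were these same treatments (-0.49, adjusted p = 0.0148, and -0.79, adjusted p = 4.68e-05), salinity (-0.59, adjusted p = 0.00308, 4.52%), acidity with water deficit and low phosphate (-0.58, adjusted p = 0.00189, 10.1%), the 4-stress combination (-0.75, adjusted p = 0.00105, 3.48%) and the 5-stress combination (-0.56, adjusted p = 0.00207, 17.6%). Held under every alternative were VSPA in cadmium and in salinity with acidity, and VSPB in acidity, in cadmium and in salinity with acidity and low phosphate. Without replicate 2 of every group VSPA was called in 2 treatments and VSPB in 4, with the same numbers without replicate 3, and without replicate 1 the numbers were 6 and 11. In acidity with low phosphate and in salinity with acidity and low phosphate, VSPA lay between -0.53 and -0.38 without replicate 2 or 3 (adjusted p from 0.0664 to 0.294). In acidity with low phosphate, acidity with water deficit and low phosphate, salinity, and the 4-stress combination, which then had 1 library, VSPB lay between -0.78 and -0.47 (adjusted p from 0.0732 to 0.265). The 5-stress call of VSPB was lost with the 2 compared groups alone (adjusted p = 0.155).

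The flower 5-stress group turned on its replicate 1. VSPA was at 5570, 9350 and 9271 FPKM and VSPB at 877, 1529 and 1462 FPKM. The library with the low values had a mean correlation of 0.938 with the other libraries of its group over all tested features, rank 3 from the lowest of the 51, where the median library had 0.960. The libraries of acidity with water deficit ranked 1, 2 and 4, and the other 2 of the 5-stress group 7 and 9. Without the 5-stress replicate 1 VSPA was called in 9 treatments, 2 of them rises (water deficit, 0.31, adjusted p = 0.00466, and acidity with water deficit, 0.24, adjusted p = 0.00945), and VSPB in 10, all falls. The 5-stress change was then 0.02 (adjusted p = 0.912) for VSPA and -0.30 (adjusted p = 0.0453) for VSPB. The share of all features called in that fit is not given here, so its counts do not set the 2 genes apart from others.

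In the order of flower levels, 14 of the 17 neighbouring pairs overlapped for VSPA and 12 for VSPB. VSPA did not overlap with control in 13 of the 17 treatments, and VSPB in 13 that were not all the same ones. Salinity with acidity, for example, was among those of VSPA only. These counts were not made over all features, so they do not set the 2 genes apart from others.

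The 4 stresses other than cadmium formed a complete set of 16 combinations, so the mean effect of each could be taken from 8 treatments that had it and 8 that lacked it. In leaf salinity raised both genes on average, by 0.74 ± 0.07 for VSPA (adjusted p = 8.55e-12) and 0.88 ± 0.11 for VSPB (adjusted p = 1.02e-08), where 70.7% of all features were called. This average spans unlike steps. Mean VSPA was 178 FPKM under water deficit and 1027 FPKM with salinity added. Under acidity it was 287 FPKM, and 204 FPKM with salinity added, with libraries that overlapped. Low phosphate lowered leaf VSPA (-0.26 ± 0.07, adjusted p = 0.00406, 32.8% of all features called), and VSPB had the same value without passing (-0.26 ± 0.11, adjusted p = 0.0653). Without replicate 1 of every group the VSPA value was -0.23 (adjusted p = 0.121). Acidity had a mean effect of 0.25 ± 0.11 on leaf VSPB (adjusted p = 0.0456, 61.8% called), lost without the filter on low features (adjusted p = 0.0579), without replicate 1 (0.30, adjusted p = 0.101) and without replicate 3 (0.14, adjusted p = 0.389). It had -0.01 on VSPA, which was not called. Water deficit had -0.15 (adjusted p = 0.0603) on VSPA and -0.23 (adjusted p = 0.0721) on VSPB, with 50.0% of all features called, and both passed without replicate 2 (-0.24, adjusted p = 0.00974, and -0.36, adjusted p = 0.0176).

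In flower acidity lowered both genes (VSPA -0.29 ± 0.02, adjusted p = 1.53e-10; VSPB -0.36 ± 0.04, adjusted p = 2.06e-08), where 12.7% of all features were called. Water deficit raised VSPA by 0.31 ± 0.02 (adjusted p = 9.59e-12, 20.9% called) and had 0.01 on VSPB, which was not called. Salinity lowered VSPA (-0.18 ± 0.02, adjusted p = 1.94e-05, 3.98% called) and had 0.02 on VSPB, also not called. For low phosphate the values were -0.01 and -0.04, and neither passed, where 4.23% of all features did. These means run over steps that differed in sign. Mean flower VSPB was 1843 FPKM in control, 798 FPKM under acidity, 1221 FPKM under salinity and 1906 FPKM under both. Of 6 pairwise interaction tests in flower, VSPA was called in 2 and VSPB in 4, not all kept with a replicate left out. The share of all features called in these tests is not given here.

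The effect of a stress in leaf depended on the other stresses present. The steps in which 1 stress was added to a treatment were chosen as contrasts after the data had been seen, 28 in each tissue beside the 4 single stresses. In leaf VSPA was called in 18 of these 28 steps, 9 up and 9 down, and VSPB in 12, 6 up and 6 down, where 19.5% of all feature tests were called in each direction. Without replicate 1 of every group the counts were 13 and 7.

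Salinity added to water deficit took leaf VSPA from 163, 226 and 145 FPKM to 1049, 1117 and 915 FPKM, a 5.77-fold difference of means. The log2 change was 2.54 ± 0.18 (adjusted p = 5.01e-15) for VSPA and 2.40 ± 0.29 (adjusted p = 5.26e-09) for VSPB, a 5.45-fold difference, where 52.5% of all features were called. Low phosphate added to that pair took both genes down again. VSPA was at 162, 198 and 222 FPKM in salinity with water deficit and low phosphate, and VSPB at 7.57, 15.5 and 13.8 FPKM. The change was -2.40 for both genes (SE 0.18, adjusted p = 7.36e-13 for VSPA; SE 0.29, adjusted p = 8.82e-08 for VSPB), 5.29-fold and 5.44-fold in means. In this step 12.6% of all features were called, and the 2 genes had the 48th and the 50th largest absolute change of the 28678.

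Low phosphate added to salinity with acidity gave higher levels of both genes. VSPA went from 194, 139.6 and 278 FPKM to 630.5, 693 and 653 FPKM, a 3.23-fold rise (1.74 ± 0.18, adjusted p = 1.08e-10, 64.6% of all features called). VSPB went from 27.2, 14.1 and 37.4 FPKM to 47.8, 58.8 and 53.6 FPKM, a 2.03-fold rise (1.09 ± 0.29, adjusted p = 0.00117), which was lost in 1 of 10 alternatives, with an adjusted p of 0.0714.

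Acidity added to salinity lowered both genes in leaf, VSPA by a change of -1.44 (adjusted p = 8.62e-09) and VSPB by one of -0.80 (adjusted p = 0.0145), with 65.3% of all features called. Added to salinity with water deficit it lowered VSPA 3.06-fold, from the levels above to 269, 405 and 333 FPKM (-1.63, adjusted p = 2.46e-08, 7.76% called). VSPB was at 24.4, 40.9 and 30.2 FPKM there (-1.07, adjusted p = 0.0148). Added to salinity with water deficit and low phosphate, acidity raised both genes, by 0.98 for VSPA (adjusted p = 6.67e-05) and 1.83 for VSPB (adjusted p = 5.95e-06), with 24.1% called. In these 3 steps the VSPA calls held under every alternative. The VSPB calls of the first 2 steps were lost in 2 of 10 alternatives each, with an adjusted p of up to 0.247 and 0.300.

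**Figure D3:**
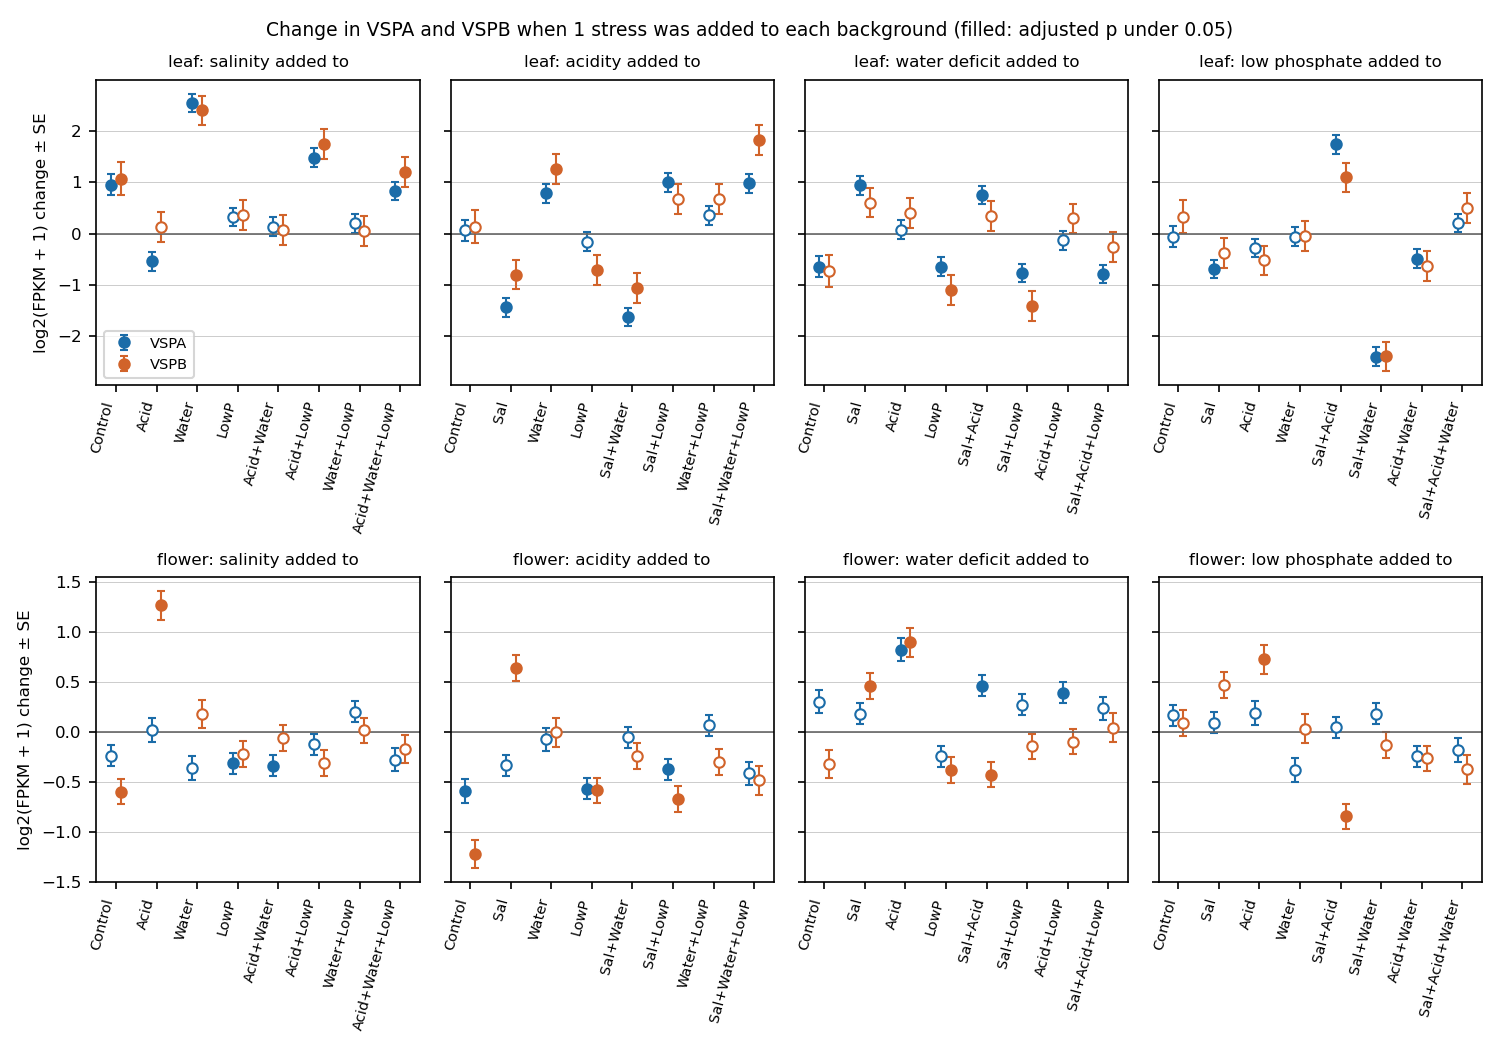
Change of VSPA and VSPB, as log2(FPKM + 1) ± SE, when 1 stress was added to the treatment named on the x axis, in leaf (top) and flower (bottom), with filled points for an adjusted p under 0.05. In leaf, low phosphate lies at -2.40 for both genes when added to salinity with water deficit and at 1.74 (VSPA) and 1.09 (VSPB) when added to salinity with acidity.

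The tests of interaction in the factorial measured the same dependence. Over all backgrounds, the effect of low phosphate on leaf VSPA was higher by 1.10 ± 0.14 with acidity than without it (adjusted p = 7.51e-08, 36.5% of all features called). It was lower with water deficit than without it, a difference of -0.86 ± 0.14 (adjusted p = 3.52e-06, 38.9% called). For VSPB these differences were 0.73 ± 0.22 (adjusted p = 0.00794) and -0.77 ± 0.22 (adjusted p = 0.00462), and without replicate 1 neither was called. The 3-way term of salinity, acidity and low phosphate was 2.85 ± 0.27 for VSPA (adjusted p = 1.52e-09) and 2.90 ± 0.43 for VSPB (adjusted p = 1.08e-05), in a term for which 15.0% of all features were called, and both held under every alternative. It ranked 76th and 66th by absolute size among the 28678 features. Leaf VSPA was called in 4 of the 6 pairwise terms and VSPB in 3, where 34.0% of all feature tests were called.

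In flower VSPA was called in 7 of the 28 steps, 3 up and 4 down, and VSPB in 10, 5 up and 5 down, where 3.01% of all feature tests were called as rises and 3.31% as falls. Salinity added to acidity changed VSPA by 0.02, which was not called, with 6086, 6229 and 6335 FPKM against 5689 and 6587 FPKM. VSPB went from 693 and 903 FPKM to 1918, 1936 and 1864 FPKM, a 2.39-fold rise (1.27 ± 0.14, adjusted p = 5.02e-07, 1.12% of all features called), with an adjusted p of 0.0712 in the 1 alternative that lost it. Low phosphate added to salinity with acidity brought VSPB down to 1029, 1033 and 1127 FPKM (-0.84 ± 0.13, adjusted p = 1.73e-05, 10.4% called), a call that held under every alternative. Water deficit added to acidity raised both, VSPA by 0.82 ± 0.12 (adjusted p = 2.46e-06) and VSPB by 0.90 ± 0.14 (adjusted p = 1.85e-05), with 17.3% called, and the VSPB call was lost without replicate 2 (0.69, adjusted p = 0.0666). Over the 28 steps VSPA and VSPB were called in 11 and 13 without replicate 1, in 1 and 1 without replicate 2, and in 2 and 3 without replicate 3. Without the flower 5-stress replicate 1 they were called in 14 and 12.

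Cadmium added to the 4-stress combination gave the largest fall of the pair in leaf. VSPA went from 385, 485 and 296 FPKM to 54.8, 64.5 and 53.8 FPKM, a 6.74-fold fall. VSPB went from 51.7, 50.2 and 33.4 FPKM to 5.84, 6.66 and 5.71 FPKM, a 7.43-fold fall. The groups did not overlap for either gene. The changes were -2.71 ± 0.18 (adjusted p = 1.67e-15) and -2.68 ± 0.29 (adjusted p = 6.17e-10), the 73rd and 77th largest absolute changes of the 28678 features, of which 51.5% were called. The step differed from that of cadmium alone by -3.16 for VSPA and -3.08 for VSPB, both called, as were 55.9% of all features.

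In flower the same step went without a call, at 0.05 for VSPA (adjusted p = 0.901) and 0.19 for VSPB (adjusted p = 0.598), where 0.503% of all features were called. Without the 5-stress replicate 1 it was 0.30 (adjusted p = 0.0371) and 0.45 (adjusted p = 0.0335). Since cadmium alone lowered both genes, its effect on the 4-stress combination differed from its effect alone by 0.82 for VSPA (adjusted p = 0.00109) and 1.82 for VSPB (adjusted p = 6.28e-08), with 3.78% of all features called. The VSPA difference was lost without replicate 2 (0.67, adjusted p = 0.304) and without replicate 3 (0.73, adjusted p = 0.216), either of which leaves 1 library of the 4-stress combination.

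The 4-stress combination was also set against the sum of its 4 single effects. In leaf the departure was 0.16 for VSPA and 0.31 for VSPB, neither called, with 16.5% of all features called. It had no stable direction, ranging from -0.38 to 0.92 for VSPA and from -0.48 to 1.54 for VSPB with each replicate left out in turn. In flower it was 0.07 for VSPA, not called, and 1.29 for VSPB (adjusted p = 0.0282, 4.73% called), so VSPB lay above that sum. The VSPB call was lost without replicate 2 (1.08, adjusted p = 0.486) and without replicate 3 (1.63, adjusted p = 0.203), which leave 1 library each of acidity, water deficit and the 4-stress combination.

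**Figure D4:**
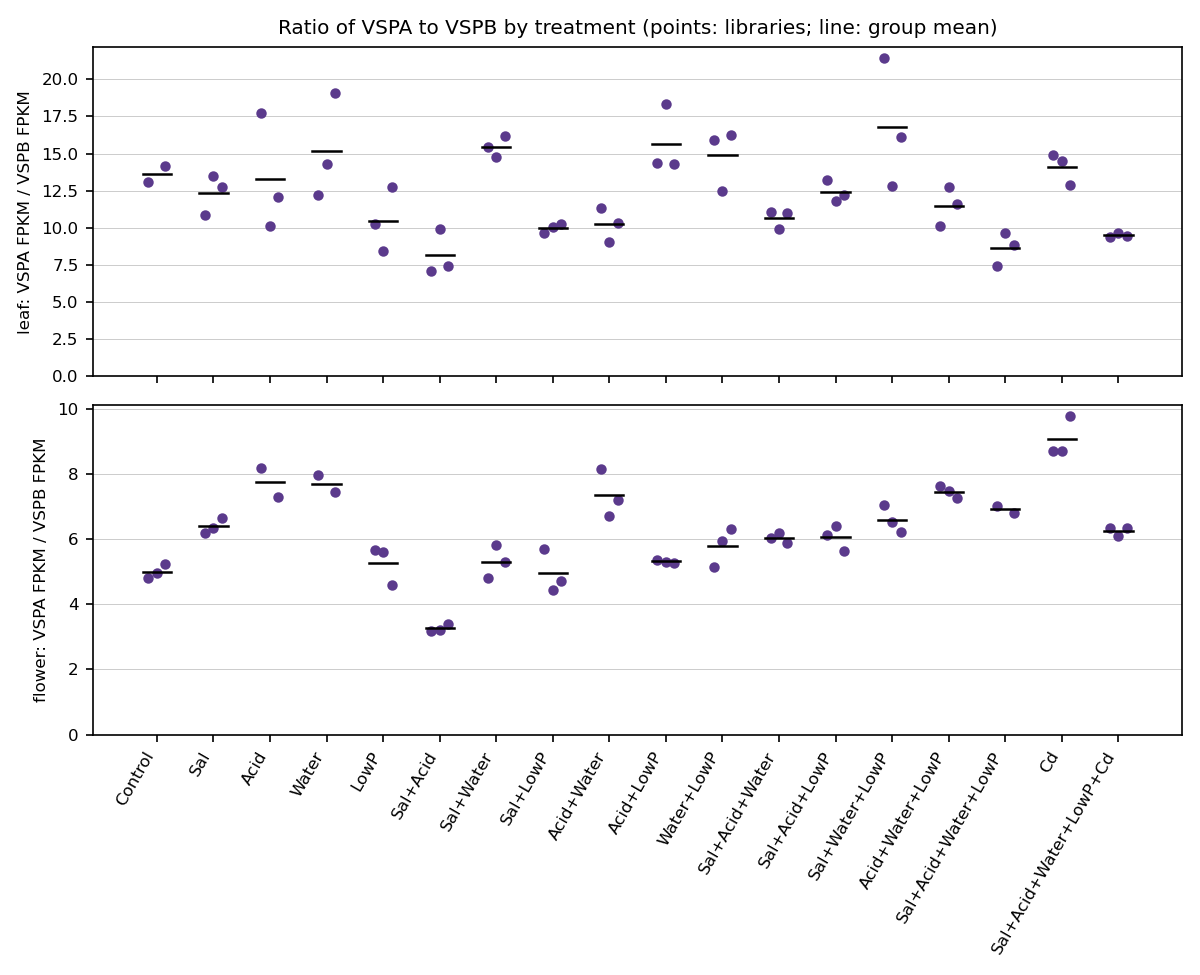
Ratio of VSPA to VSPB FPKM in each library by treatment, leaf on top and flower below, with lines at group means. In flower salinity with acidity has the lowest ratio (mean 3.26) and cadmium the highest (mean 9.07), with control at 5.00.

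The ratio of VSPA to VSPB ranged from 7.11 to 21.5 in leaf libraries, with a median of 12.2, and from 3.17 to 9.79 in flower libraries, with a median of 6.19. These ratios depend on how reads that match both genes were counted, which is not given. Whether a stress moved the balance was tested on log2 of (VSPB + 1) over (VSPA + 1), in FPKM, within the 8 backgrounds. The added 1 draws this value away from the plain ratio where VSPB is low, as in leaf. It was a two-sided permutation test with 100000 resamples, adjusted over 8 tests. In flower water deficit moved it toward VSPA by -0.30 (permutation adjusted p = 0.00112), with 2 of 8 backgrounds on the other side. In leaf acidity moved it toward VSPB by 0.26 (permutation adjusted p = 0.0375), in 6 of 8 backgrounds. The first was lost without replicate 3 (permutation adjusted p = 0.0621) and the second without replicate 1, 2 or 3 (permutation adjusted p of 0.0858, 0.0806 and 0.416). The other 6 tests missed the threshold, the nearest being salinity in leaf (0.14) and in flower (0.19), both at a permutation adjusted p of 0.104.

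The 2 genes followed each other closely over the leaf treatments and less so over the flower treatments. Over the 18 treatment means of log2(FPKM + 1), Pearson's r was 0.94 and Spearman's rho 0.95 in leaf, both at a permutation p of 1e-05, the smallest that the resamples can give, and at 2e-05 adjusted over the 2 tissues. Without the 2 treatments farthest from the median of VSPA, r was 0.91. In flower r was 0.65 (permutation p = 0.00273, also after adjustment) and rho 0.57 (permutation p = 0.0144). Without the 2 farthest treatments r was 0.34 (permutation p = 0.200). Leaving out treatments by their VSPA level narrows its range and by itself tends to lower r. The lower value therefore cannot decide whether the flower relation rested on those treatments. Within groups, the deviations of the 2 genes from their group means had r = 0.86 over the 53 leaf libraries and r = 0.77 over the 51 flower libraries, as a description of values that come from the same library. Reads that match both genes could add signal of 1 gene to the other, and their part in all these coefficients was not tested.

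No relation with the number of stresses applied passed the test. Over the 15 stress treatments of the factorial, r with the number of stresses was 0.10 for VSPA and 0.19 for VSPB in leaf and -0.11 and -0.15 in flower, with rho of 0.17, 0.22, -0.10 and -0.22. All 4 had a permutation p of 0.498 or more, and the adjusted p was 0.710 for r in each. With the 4-stress combination and 1 single stress left out, r spanned -0.11 to 0.18 for leaf and -0.38 to 0.18 for flower over the choices of the single stress.

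Among all features tested in leaf, the one whose log2 level was most like that of VSPA over the 53 libraries was VSPB, and the reverse held for VSPB, with r = 0.92 out of 28677 other features. In flower the pair had r = 0.66 over 51 libraries, which put VSPB 49th for VSPA and VSPA 31st for VSPB among 33791 features. GLYMA_02G156800 was among the 5 features most like VSPA in leaf (r = 0.83) and most like VSPB in leaf (r = 0.74) and in flower, where it came first (r = 0.86). For VSPA in flower the most alike was GLYMA_09G153900 (r = 0.84) and the most opposed GLYMA_04G131100 (r = -0.86). The features most opposed in leaf were GLYMA_06G142200 for VSPA (r = -0.76) and GLYMA_12G104100 for VSPB (r = -0.72). These coefficients describe libraries that share treatments and scaling, and the deposited tables do not say what these features encode. For VSPA with VSPB the part of reads that match both genes was not tested either.

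The features with the 5 next lower and 5 next higher numbers around each gene were described as neighbours by identifier, 20 in all, of which 12 were tested in leaf and 14 in flower. GLYMA_08G200000, 1 step below VSPB in number, had a mean of 3322 FPKM in flower, above that of VSPB, and 1.58 FPKM in leaf. Over flower libraries it ranged from 2094 to 4630 FPKM, and it was called against control in 9 of 17 treatments, higher in all 9, where the calls of VSPB were all lower. Under salinity with acidity and low phosphate, for example, it rose by 0.80 on the log2 scale (adjusted p = 1.69e-06) while VSPB fell.

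GLYMA_07G014600, 1 step above VSPA in number, had 335 FPKM in flower and 3.82 FPKM in leaf. Its correlation with VSPA over libraries was 0.75 in leaf and 0.65 in flower. In leaf it was called in 12 treatments, 10 of them higher. It rose in salinity with water deficit (2.33, adjusted p = 7.60e-15) and in salinity with acidity and low phosphate (1.58, adjusted p = 3.28e-10) and fell in the 5-stress combination (-1.20, adjusted p = 9.62e-08), in which its mean was 0.116 FPKM against 1.58 FPKM in control. It also rose where VSPA was not called higher, to 7.47 FPKM in acidity with water deficit, to 6.27 FPKM in acidity with low phosphate and to 3.16 FPKM in salinity with water deficit and low phosphate, where VSPA fell. In flower it was called in 6 treatments, lower in each, cadmium (-0.77, adjusted p = 4.20e-10) and acidity (-0.57, adjusted p = 6.17e-06) among them. Of the neighbours with the highest leaf levels, GLYMA_07G014100 (67.0 FPKM) was called in 13 of 17 leaf treatments, lower in each, and GLYMA_08G200200 (64.0 FPKM) in 10, of which 8 were higher.

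The effects in the 2 organs were compared in 1 model over both, as leaf effect minus flower effect, for the features tested in both. The mean effect of salinity was higher in leaf by 0.92 for VSPA and 0.86 for VSPB, both called, with 57.6% of all features called. That of acidity differed by 0.28 and 0.60, both called (49.0% of all features). The VSPA effects of water deficit (-0.46, 36.2% of all features) and low phosphate (-0.24, 17.7%) were called too, and those of VSPB were not. The low phosphate difference of VSPA was lost without replicate 1 (-0.21, adjusted p = 0.184), without replicate 2 (-0.21, adjusted p = 0.169) and under median-ratio scaling (-0.18, adjusted p = 0.0843), and the water deficit difference of VSPB passed without replicate 2 (-0.36, adjusted p = 0.0453). Cadmium alone differed by 1.23 for VSPA and 2.02 for VSPB and the 5-stress combination by -2.002 for VSPA and -1.02 for VSPB, all called, with 47.3% of all features called in each of these comparisons. The 5-stress difference of VSPB was lost without replicate 1 (-1.06, adjusted p = 0.0581) and without replicate 3 (-0.86, adjusted p = 0.0887). So cadmium alone, which lowered both genes in flower, had no called effect in leaf. The 5-stress combination, which gave the lowest leaf levels, left the flower levels of 2 of its 3 libraries near control for VSPA. For VSPB all its flower libraries, at 877, 1529 and 1462 FPKM, lay below every control library. That fall was called, though not with the 2 compared groups alone.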

How the data were processed

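RNA was measured in leaf and flower pools, and the deposited values are FPKM made by the authors, 1 table per tissue. HISAT2 2.2.1 is named in the submitters' processing notes, and the counter, genome build and annotation are not given in the sources used here. The labels name no sequencing batch. Of the 108 columns, 4 equalled the mean of their group's other 2 columns at 99.998% or more of features above 0 (at most 0.398% elsewhere) and were left out. No identifier matched the RefSeq table at hand (0 of 57147), so planned pathway lists, tissue markers and promoter motifs were not used, and no sequence or position is given.

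limma 3.58.1 in R 4.3.3 (trend, robust) was fitted to log2(FPKM + 1) of every feature averaging 1 FPKM or more, 28678 in leaf and 33792 in flower, over all 18 groups of a tissue, or the 16 of the factorial for mean effects and interactions. This scale understates the change of low genes. Benjamini-Hochberg adjustment ran over all features of a comparison, with a threshold of 0.05, and fold changes in the text are ratios of mean FPKM. A mean effect sets the 8 treatments that include a stress against the 8 that lack it. Fits were tested on simulated data with 200 features changed by 1 on the log2 scale: 92.5% were recovered for leaf salinity against control and 88.5% for flower. Of the features called there, 6.57% in leaf and 4.84% in flower had not been changed. Far fewer features were changed in the simulation than were called in the leaf data. Replicate pools may share a growth run, which the labels do not state, so p-values measure the spread between these pools.

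Named features were the 2 genes, the 2 neighbours by identifier with the highest mean per tissue, and, from the 5 most and 5 least alike features per gene and tissue, the first of each or one that recurred. The genes, lists and tests were chosen with earlier results of these data known. Other computing used numpy 2.4.6 and pandas 2.3.3 under Python 3.11.15, with figures by matplotlib 3.10.9. Alternatives were another pseudocount, median-ratio scaling, no filter, only the compared groups, the averaged columns counted, zeros as missing, the 2 genes summed, a replicate block and each replicate left out.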

Additional observations from a re-analysis of the deposited data

Results flagged for a closer look

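The effects of treatments differed between the organs in 10 tests, each made as leaf effect minus flower effect in 1 model over both tissues and adjusted over all features tested in both. For the mean effect of salinity the difference was 0.92 for VSPA and 0.86 for VSPB, with rises in leaf and a fall of flower VSPA. Of all features, 57.6% differed. For acidity it was 0.28 for VSPA and 0.60 for VSPB, and both genes fell in flower, while 49.0% of all features differed. For water deficit it was -0.46 for VSPA, which rose in flower (36.2% of all features differed), and for low phosphate -0.24 for VSPA (adjusted p = 0.0218, 17.7% of all features). The VSPB differences for water deficit and for low phosphate were tested too and not called. For cadmium alone the difference was 1.23 for VSPA and 2.02 for VSPB, and for the 5-stress combination -2.002 for VSPA and -1.02 for VSPB (adjusted p = 0.00946). In each of these comparisons 47.3% of all features differed, so such a difference was common. The low phosphate difference of VSPA and the 5-stress difference of VSPB were each lost without replicate 1 of every group (adjusted p = 0.184 and 0.0581). What sets the organs apart was not tested.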

How the results depend on the processing

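Of 58 main results, 497 of their values under an alternative were rated the same, 17 lost the call, 6 gained it and 10 moved. A value was rated the same if it kept its direction and its side of the threshold. An uncalled value whose sign changed by less than its SE, and a count of calls that stayed close, were rated the same too. No called value changed sign. Over the tests of the 2 genes in these and 220 other results, 63 values that were not called did. Counts of calls under an alternative are given for the 2 genes only, without the share of all features called under it. Flower VSPA was called in 8 treatments with the 2 compared groups alone, and in 9 without flower 5-stress replicate 1, an alternative chosen after seeing the data. The cadmium step on 4 stresses in flower was then 0.30 for VSPA and 0.45 for VSPB, its difference from cadmium alone 1.06 for VSPA, and the organ difference of the 5-stress combination -1.28 for VSPB. Under median-ratio scaling the organ difference for low phosphate was -0.18 for VSPA (adjusted p = 0.0843), and without a filter the acidity effect on leaf VSPB was 0.25 (adjusted p = 0.0579). That scaling moved the median of all features by up to 0.289.

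Leaving out a replicate leaves 1 library in groups of 2, assumed to vary like the other groups. With each left out in turn, calls against control ranged from 4 to 9 for leaf VSPA, 2 to 6 for flower VSPA and 4 to 11 for flower VSPB. In flower the cadmium step on 4 stresses ranged from -0.0806 to 0.30 for VSPA and 0.0353 to 0.45 for VSPB, its difference from cadmium alone from 0.67 to 1.05 for VSPA, the low phosphate effect on VSPA from -0.0446 to 0.0292, and the departure of VSPB from additivity from 1.08 to 1.63. In leaf the VSPA effects ranged from -0.27 to -0.23 for low phosphate and -0.24 to -0.10 for water deficit, and the VSPB effects from 0.14 to 0.31 for acidity and -0.36 to -0.15 for water deficit. Organ differences ranged from -0.30 to -0.21 for low phosphate (VSPA), -0.36 to -0.17 for water deficit (VSPB) and -1.16 to -0.86 for the 5-stress combination (VSPB). The balance of the genes ranged from -0.31 to -0.29 for flower water deficit and 0.19 to 0.31 for leaf acidity. The cause was not tested.

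Over pairs of groups, the deviations of same-numbered libraries had a median r of 0.002 in leaf and 0.001 in flower. An r over 0.1 was found in 3.19% of these pairs in leaf and 6.35% in flower. A median near 0 cannot exclude that the numbers pair libraries in some groups. With the replicate block, leaf VSPB was called in 5 treatments instead of 6 (water deficit with low phosphate, adjusted p = 0.0569), and the other counts against control stayed at 9, 5 and 8. Read depth is unknown, so no counting interval could be given.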
